A study of Homo sapiens with 4 samples.

Results

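The genes that build cholesterol and fatty acids were examined in MCFDCIS, a human breast cancer line that the study places in the basal subtype. The cells had been transfected for 72 hours with siRNA against Slug or with a control siRNA, after 48 hours of growth, and were about 70% confluent when RNA was taken. The members were 30 named genes of the mevalonate pathway, the sterol pathway, the SREBP system that controls both, and fatty acid synthesis. LPIN1, a gene of glycerolipid synthesis, was listed in the fatty acid group. A gene counted as measured where the platform annotation gave a probe its symbol and that probe was above background, with a detection p under 0.05 on at least 2 arrays. The brightest such probe stood for the gene. By this rule 27 of the 30 members were measured, among 11200 genes in all. FDFT1, the squalene synthase gene, was not analysed here. STARD4, which encodes a sterol transfer protein, and FADS2, a fatty acid desaturase gene, each had a probe that exceeded background on none of the 4 arrays. The lowest detection p on any array was 0.0519 for FADS2 and 0.184 for STARD4. Among the measured members, SREBF2 was above background on 3 arrays and not on control siRNA replicate 1. The other 26 measured members were above background on all 4 arrays.

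Cells make cholesterol from acetyl-CoA by way of mevalonate, which is turned into isoprenoid units and joined to squalene, and squalene is then closed into a ring and trimmed to the final sterol. Fatty acids branch off the same acetyl-CoA, which ATP citrate lyase supplies to the cytosol. Both branches are switched on by the SREBP transcription factors, which are held in the endoplasmic reticulum by the INSIG proteins while sterol is plentiful and are cut and released to the nucleus when it is scarce. INSIG1 is itself a target of SREBP, so its transcript is widely read as a gauge of SREBP activity. Slug, the product of SNAI2, is a zinc finger repressor of epithelial genes that binds E-box motifs.

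The study held 2 Slug siRNA and 2 control siRNA samples, labelled as biological replicates 1 and 2 of each transfection, all on 1 chip of Illumina bead arrays. Whether replicates came from separate cultures is not stated, so a p-value reflects only how far these arrays differ. Between 39.8% and 40.8% of probes per array were above background. Both groups are the same single cell line. SNAI2, the target, had a normalized log2 intensity of 8.57 and 8.51 on the Slug siRNA arrays, against 8.95 and 9.01 on the control siRNA arrays. The difference, -0.44 ± 0.16 (SE) in log2, did not pass over all probes (limma adjusted p = 0.315), and a second probe gave -0.37 (adjusted p = 0.428). Of 5 epithelial markers 4 were measured, and their mean log2 intensity was 11.31 and 11.57 with Slug siRNA against 10.84 and 10.88 with control siRNA. KRT19 was not above background. The log2 fold changes of the 3 measured basal markers were 0.14 for KRT5, -0.30 for KRT14 and -0.12 for ITGB4, with mean log2 intensities of the list of 9.85 and 9.83 with Slug siRNA and 9.88 and 9.98 with control siRNA. A further 2 listed basal markers were not analysed here. The fibroblast markers DCN and LUM, the endothelial markers CDH5 and VWF, the leukocyte marker PTPRC and the adipocyte markers ADIPOQ and PLIN1 were not above background. PECAM1 and CD14 were above it on all 4 arrays, at 7.83 to 9.14 and 9.57 to 10.51 in log2. COL1A1 was above it on 1 array of each group, and FABP4 on both Slug siRNA arrays only.

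With Slug siRNA, the genes of cholesterol and fatty acid synthesis read lower on balance, by modest amounts. Their median log2 fold change was -0.26 over the 27 measured members, beside 0.01 over all 11200 genes, and values ran from -0.84 for INSIG1 to 0.36 for PMVK. A total of 19 members had a negative value, a sign that 48.4% of all genes had, and 8 had a positive one. The median was -0.16 without Slug siRNA replicate 1. In 13 members both Slug siRNA arrays lay below both control siRNA arrays, an order found in 21.5% of all genes, and in 1 member, PMVK, both lay above, as in 23.6% of all genes. No member (0 of 27) passed the adjusted threshold of 0.05 in limma over all probes, which 0.116% of all genes did, 0.0804% as lower and 0.0357% as higher. At an unadjusted p under 0.05, 6 members were lower and 0 higher, where 6.87% of all genes were lower and 6.18% higher. These 6 were INSIG1, SCD, FDPS, DHCR7, HMGCS1 and LSS, with adjusted p from 0.177 to 0.249. A p that misses the threshold does not show that values were alike, and the median SE of a member's log2 fold change was 0.18 with 2 arrays per group. Each sample was bulk RNA, so fewer cells of a state and less RNA per cell cannot be told apart.

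**Figure D1:**
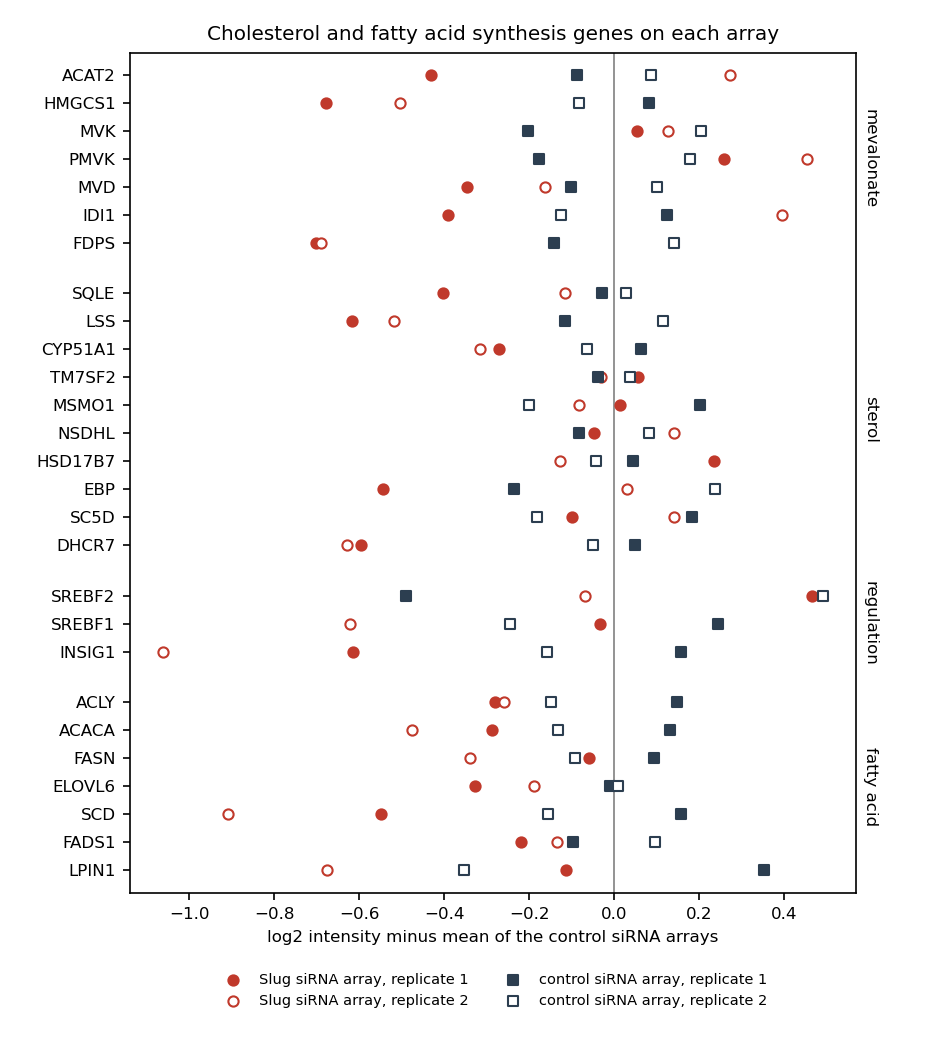
Log2 intensity of each of the 27 measured genes on each array, as the difference from the mean of the control siRNA arrays, in pathway order within the mevalonate, sterol, regulation and fatty acid groups. Circles are Slug siRNA arrays and squares control siRNA arrays, filled for replicate 1 and open for replicate 2. Both circles lie left of both squares for 13 genes, FDPS, DHCR7, INSIG1 and SCD among them.

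The mevalonate branch held 7 measured members and split by gene, with a median log2 fold change of -0.08. FDPS, the synthase that joins isoprenoid units into farnesyl diphosphate, read 9.83 and 9.84 on the Slug siRNA arrays, against 10.40 and 10.68 on the control siRNA arrays. The Slug siRNA arrays were nearly alike and lay 0.55 below the lower control siRNA array, more than the 0.28 between the control siRNA arrays. In log2 the difference was -0.70 ± 0.17 (SE), with an unadjusted p of 0.0049 and an adjusted p of 0.177 in limma, a Slug over control siRNA ratio of 0.617, and 2.29% of all genes had a value at least as low. In the bead intensities as deposited, before normalization, FDPS stood at 1024 and 1045 units with Slug siRNA and 1418 and 1715 units with control siRNA. HMGCS1, which makes HMG-CoA at the head of the pathway, averaged 10.74 ± 0.12 with Slug siRNA and 11.33 ± 0.12 with control siRNA (SD, n = 2 each). The log2 difference was -0.59 ± 0.17 (SE; adjusted p = 0.227), with a gap of 0.42 between the nearest arrays of the groups.

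The steps between these enzymes did not share that value. MVD, the decarboxylase that makes isopentenyl diphosphate, read 7.58 and 7.76 with Slug siRNA and 7.82 and 8.03 with control siRNA, which did not overlap but differed by only 0.06 at the nearest arrays. The kinase gene MVK had a log2 fold change of 0.09 (95% interval -0.36 to 0.54), and its groups overlapped. PMVK, the next kinase, was the 1 member with both Slug siRNA arrays above both control siRNA arrays, at 9.70 and 9.89 against 9.26 and 9.62 (log2 fold change 0.36, adjusted p = 0.505). With 1 array left out its value ran from 0.18 without control siRNA replicate 1 to 0.53 without replicate 2 of that group. IDI1, the isomerase of isoprenoid units, spread more within a group than between groups, at 8.45 and 9.23 with Slug siRNA and 8.96 and 8.72 with control siRNA. ACAT2, the thiolase that starts the pathway, likewise read 10.17 and 10.88 with Slug siRNA and 10.52 and 10.69 with control siRNA, so the Slug siRNA arrays lay on either side of the control siRNA arrays in both genes. The interval of the difference was -0.63 to 0.63 for IDI1 and -0.66 to 0.50 for ACAT2. The branch median was 0.13 without replicate 1 of the Slug siRNA arrays and -0.39 without their replicate 2, so its sign rested on 1 array.

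Of the 10 measured genes from squalene to cholesterol, 6 were negative, their median was -0.14 over the 10, and in 4 of them both Slug siRNA arrays lay below both control siRNA arrays, as in 21.5% of all genes. DHCR7, the reductase of the last step to cholesterol, read 9.61 and 9.58 with Slug siRNA and 10.25 and 10.15 with control siRNA. Arrays of 1 group differed by at most 0.10, and the groups were 0.55 apart at the nearest arrays. In log2 the difference was -0.61 ± 0.16 (SE), with an unadjusted p of 0.006 and an adjusted p of 0.192 in limma. Without background correction DHCR7 alone among the members passed the threshold (log2 fold change -0.56, adjusted p = 0.044). In that setting 92 of all 11200 genes passed as lower and 66 as higher. LSS, which closes squalene epoxide into lanosterol, averaged 7.69 ± 0.07 with Slug siRNA and 8.26 ± 0.16 with control siRNA (SD, n = 2 each). The groups differed by -0.57 ± 0.17 (SE) in log2, with an adjusted p of 0.249. SQLE, the squalene epoxidase and a slow step of the pathway, read 10.43 and 10.72 with Slug siRNA and 10.80 and 10.86 with control siRNA, and Slug siRNA replicate 2 lay only 0.09 below the nearest control siRNA array. CYP51A1, the lanosterol demethylase, averaged 6.98 ± 0.03 with Slug siRNA and 7.27 ± 0.09 with control siRNA (SD, n = 2 each). Its log2 fold change was -0.29, with an adjusted p of 0.518, and was -0.17 without background correction.

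Of the other genes of the sterol pathway, 5 lay near 0. TM7SF2, a sterol reductase, had a log2 fold change of 0.01 (95% interval -0.36 to 0.39). The values were -0.03 for MSMO1, the methyl sterol oxidase, 0.05 for NSDHL, the decarboxylase that follows it, 0.05 for HSD17B7, a keto sterol reductase, and 0.02 for SC5D, the lathosterol desaturase. In all of these 5 genes the groups overlapped and the difference was smaller than its SE, and the widest of their intervals was that of SC5D (-0.44 to 0.48). EBP, the sterol isomerase, had a value of -0.26 and read higher in replicate 2 of both groups, at 9.92 and 10.49 with Slug siRNA and 10.23 and 10.70 with control siRNA. Its probe also had the largest bead error of any member, up to 12.3% of the signal on 1 array.

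Among the regulators INSIG1 had the lowest value of any member. It read 11.26 and 10.82 on the Slug siRNA arrays, against 12.03 and 11.72 on the control siRNA arrays, so both Slug siRNA arrays lay below both control siRNA arrays. In log2 the difference was -0.84 ± 0.21 (SE), with an unadjusted p of 0.0055 and an adjusted p of 0.186 in limma, a Slug over control siRNA ratio of 0.559, and 1.29% of all genes had a value at least as low. As deposited, its bead intensities were 2523 and 1958 units with Slug siRNA and 4219 and 3381 units with control siRNA. A dimmer INSIG1 probe gave 6.85 and 6.25 with Slug siRNA and 7.59 and 7.49 with control siRNA, a difference of -0.995 (adjusted p = 0.145). SREBF1, which encodes the SREBP that mainly drives fatty acid synthesis, averaged 9.71 ± 0.42 with Slug siRNA and 10.03 ± 0.35 with control siRNA (SD, n = 2 each). Its groups overlapped, and the log2 fold change of -0.33 had an interval of -0.93 to 0.28. SREBF2, which encodes the SREBP that mainly drives cholesterol synthesis, was dim and variable, at 5.78 and 5.24 with Slug siRNA and 4.82 and 5.80 with control siRNA, with the highest and the lowest of the 4 values both among the control siRNA arrays. Its interval, -0.59 to 0.99, was the widest of all members. With a single array left out, the median of the 3 regulators was -0.62 without Slug siRNA replicate 1 and -0.034 without its replicate 2, against -0.33 with all arrays, and each of these was the value of SREBF1.

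All 7 measured genes of the fatty acid group, LPIN1 included, had a negative log2 fold change, with a median of -0.27. In 5 of them both Slug siRNA arrays lay below both control siRNA arrays, as in 21.5% of all genes. The median was -0.42 without control siRNA replicate 2. SCD, the desaturase that makes oleate, read 12.94 and 12.58 on the Slug siRNA arrays and 13.65 and 13.33 on the control siRNA arrays. In log2 the difference was -0.73 ± 0.20 (SE), with an unadjusted p of 0.0082 and an adjusted p of 0.216 in limma, with 0.39 between the nearest arrays and 0.36 between the Slug siRNA arrays. Its deposited intensities were 7934 and 6507 units with Slug siRNA and 13222 and 10092 units with control siRNA. ACACA, the acetyl-CoA carboxylase that commits carbon to fatty acids, averaged 9.80 ± 0.13 with Slug siRNA and 10.19 ± 0.19 with control siRNA (SD, n = 2 each), and its value of -0.38 had an adjusted p of 0.44. ACLY, the citrate lyase that supplies acetyl-CoA, read 10.96 and 10.98 with Slug siRNA and 11.39 and 11.09 with control siRNA, and ELOVL6, the elongase that acts on palmitate, read 10.35 and 10.49 against 10.67 and 10.69 with control siRNA. Their log2 fold changes were -0.27 and -0.26, with intervals of -0.68 to 0.14 and -0.64 to 0.12. ACLY stood at -0.12 when control siRNA replicate 1 was omitted and at -0.42 when replicate 2 of that group was.

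The fatty acid synthase gene FASN read 13.76 and 13.48 with Slug siRNA and 13.91 and 13.72 with control siRNA, and Slug siRNA replicate 1 lay slightly above control siRNA replicate 2. FADS1, a desaturase of polyunsaturated fatty acids, had a value of -0.18 with 0.04 between the nearest arrays of the groups, and -0.081 when control siRNA replicate 2 was omitted or -0.27 when replicate 1 of that group was. LPIN1, a phosphatidate phosphatase of glycerolipid synthesis, read 10.62 and 10.06 with Slug siRNA and 11.08 and 10.38 with control siRNA. The replicate numbers of LPIN1 differed more than the transfections did, and its log2 fold change of -0.39 was -0.04 and -0.75 at the extremes when 1 array was left out.

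**Figure D2:**
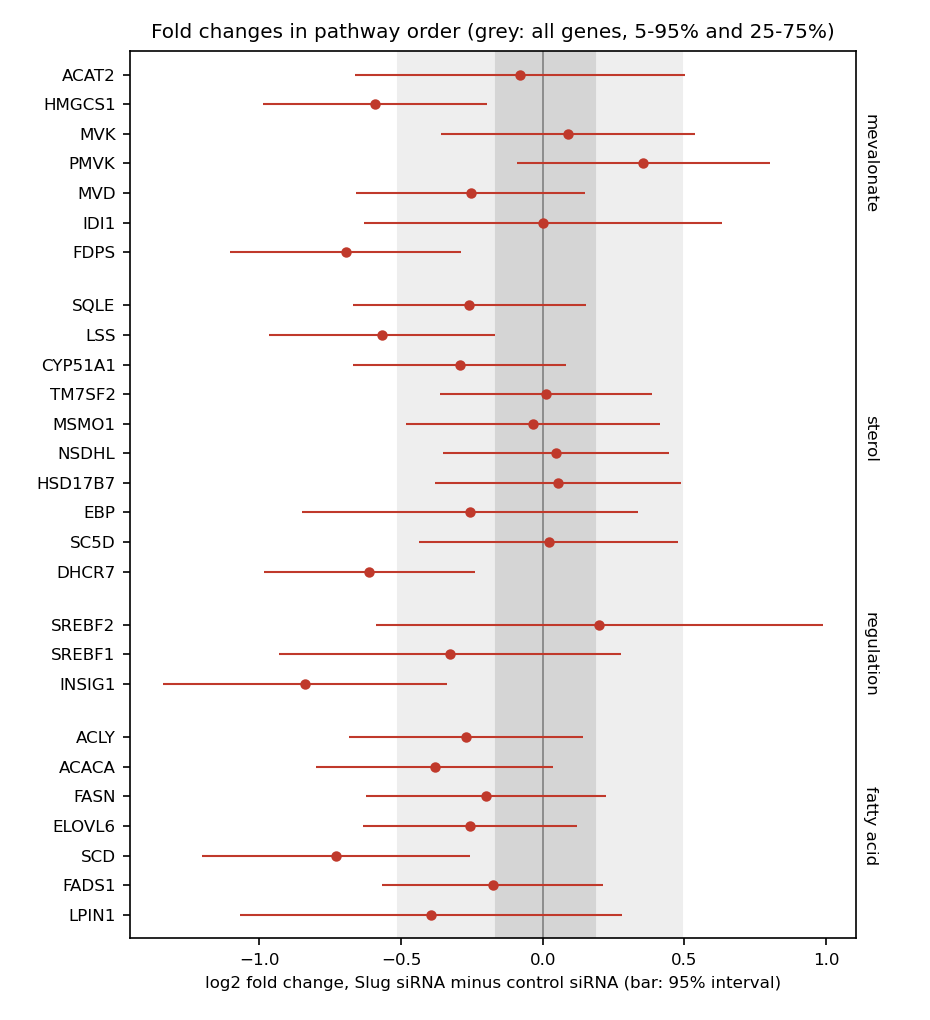
Log2 fold change of each measured gene, Slug siRNA minus control siRNA, in pathway order, with the 95% interval from limma as a bar. The light grey band holds the middle of all 11200 genes, from the 5th percentile at -0.51 to the 95th at 0.49, and the dark band runs from the 25th to the 75th. INSIG1, SCD, FDPS, DHCR7, HMGCS1 and LSS lie left of the light band.

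More than 1 probe above background was available for 8 members, and in 7 of them all probes had a negative value. The brightest and the other probe gave -0.61 and -0.49 for DHCR7, -0.38 and -0.23 for ACACA, -0.27 and -0.30 for ACLY and -0.26 and -0.32 for SQLE. They gave -0.26 and -0.16 for ELOVL6 and -0.33 and -0.22 for SREBF1. The exception was MSMO1, whose 3 probes spanned -0.03 to 0.07. Probes of a gene share the same RNA and array, so they check the reading of the transcript and are not further replicates.

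**Figure D3:**
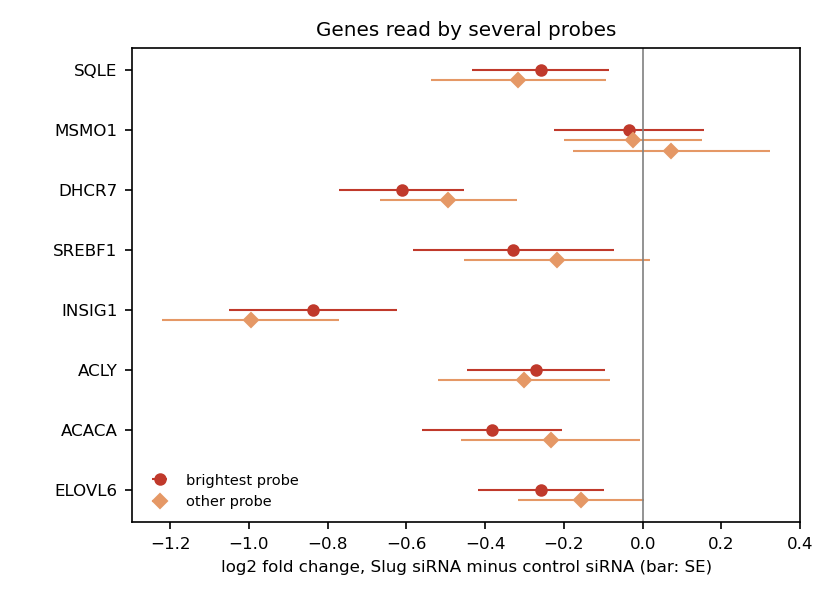
Log2 fold change, Slug siRNA minus control siRNA, for the 8 genes read by several probes, with the brightest probe of each gene as a circle and its other probes as diamonds, and bars for the SE. The 2 INSIG1 probes stand farthest to the left, and only the probes of MSMO1 lie on both sides of 0.

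SREBP factors bind sterol regulatory elements together with NF-Y, a factor of the CCAAT box, so the promoters of the members were searched for these motifs and for the E-box to which Slug binds. The windows ran from 250 bases before to 50 after each start site in RefSeq (GRCh38.p14), and 24 of the 27 measured members had 1 or more. No window was available for ACAT2, FASN and SQLE, which were not searched. On both strands, CCAAT was found in 18 of these 24 members (75%), and in 42.1% of the 15843 protein-coding genes with a window. It was present in at least 1 window of all 6 members with an unadjusted p under 0.05 and of 12 of the other 18. DHCR7 and HMGCS1, among those 6, each also had a window without it. The E-box CAGGTG or its complement CACCTG was in 7 of 24 members and in 24.8% of protein-coding genes, and in 0 of those 6 members. The core of the sterol regulatory element, TCACNCCAC, was found in 1 member, SREBF2, and in 1.51% of protein-coding genes. Over all 35116 windows of this length the shares were 34.6% for CCAAT, 20.6% for the E-box and 1.13% for the sterol element. A match is a description of letters and not a binding site, and no match says only that the letters are not in the window.

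The 250 bases before a start site are shown for the 4 members with the lowest unadjusted p and for SREBF2. The stretches of those 4 hold CCAAT boxes and no Slug E-box. Of the 24 members with a window, SREBF2 alone matched the searched spelling of the sterol regulatory element. Other spellings of that element were not searched. DHCR7 had a further window, with neither CCAAT nor the E-box, which is not shown. The sequences run 5′ to 3′ on the strand of the gene, with CCAAT, its complement ATTGG and, in SREBF2, the sterol regulatory element in capitals. The stretches are chr1:155308616-155308865 on the plus strand for FDPS, chr7:155297628-155297877 on the plus strand for INSIG1, chr11:71448394-71448643 on the minus strand for DHCR7, chr10:100346983-100347232 on the plus strand for SCD and chr22:41832855-41833104 on the plus strand for SREBF2, all in GRCh38.p14.
FDPS: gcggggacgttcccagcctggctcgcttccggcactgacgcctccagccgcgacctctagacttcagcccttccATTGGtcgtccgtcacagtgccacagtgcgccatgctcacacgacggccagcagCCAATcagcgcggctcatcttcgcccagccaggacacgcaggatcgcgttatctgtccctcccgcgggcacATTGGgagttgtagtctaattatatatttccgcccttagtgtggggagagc
INSIG1: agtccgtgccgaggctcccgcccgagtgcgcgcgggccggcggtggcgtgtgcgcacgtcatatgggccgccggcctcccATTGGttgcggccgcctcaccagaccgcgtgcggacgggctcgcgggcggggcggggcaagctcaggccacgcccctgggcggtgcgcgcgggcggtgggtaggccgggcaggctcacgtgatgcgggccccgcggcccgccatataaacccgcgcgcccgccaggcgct
DHCR7: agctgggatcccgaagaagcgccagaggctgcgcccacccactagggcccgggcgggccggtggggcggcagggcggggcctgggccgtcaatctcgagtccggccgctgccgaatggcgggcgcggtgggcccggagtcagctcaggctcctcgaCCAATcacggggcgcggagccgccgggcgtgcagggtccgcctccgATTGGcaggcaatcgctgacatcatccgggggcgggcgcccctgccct
SCD: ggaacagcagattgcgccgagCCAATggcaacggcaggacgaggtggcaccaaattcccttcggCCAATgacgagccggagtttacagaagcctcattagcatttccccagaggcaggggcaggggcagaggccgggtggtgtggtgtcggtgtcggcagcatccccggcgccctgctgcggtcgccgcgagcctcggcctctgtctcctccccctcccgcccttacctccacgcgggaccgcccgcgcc
SREBF2: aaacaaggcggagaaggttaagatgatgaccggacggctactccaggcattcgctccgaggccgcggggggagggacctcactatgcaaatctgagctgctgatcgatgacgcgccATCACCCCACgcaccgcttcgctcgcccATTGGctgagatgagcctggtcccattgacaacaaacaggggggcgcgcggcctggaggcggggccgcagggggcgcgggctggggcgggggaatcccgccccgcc
FDPS holds 3 CCAAT matches, which start 176, 122 and 51 bases before the start site, and INSIG1 holds 1, at 170 bases. The 2 matches of DHCR7 start at 94 and 48 bases and the 2 of SCD at 229 and 186 bases, while that of SREBF2 starts at 106 bases, downstream of its sterol regulatory element.

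**Figure D4:**
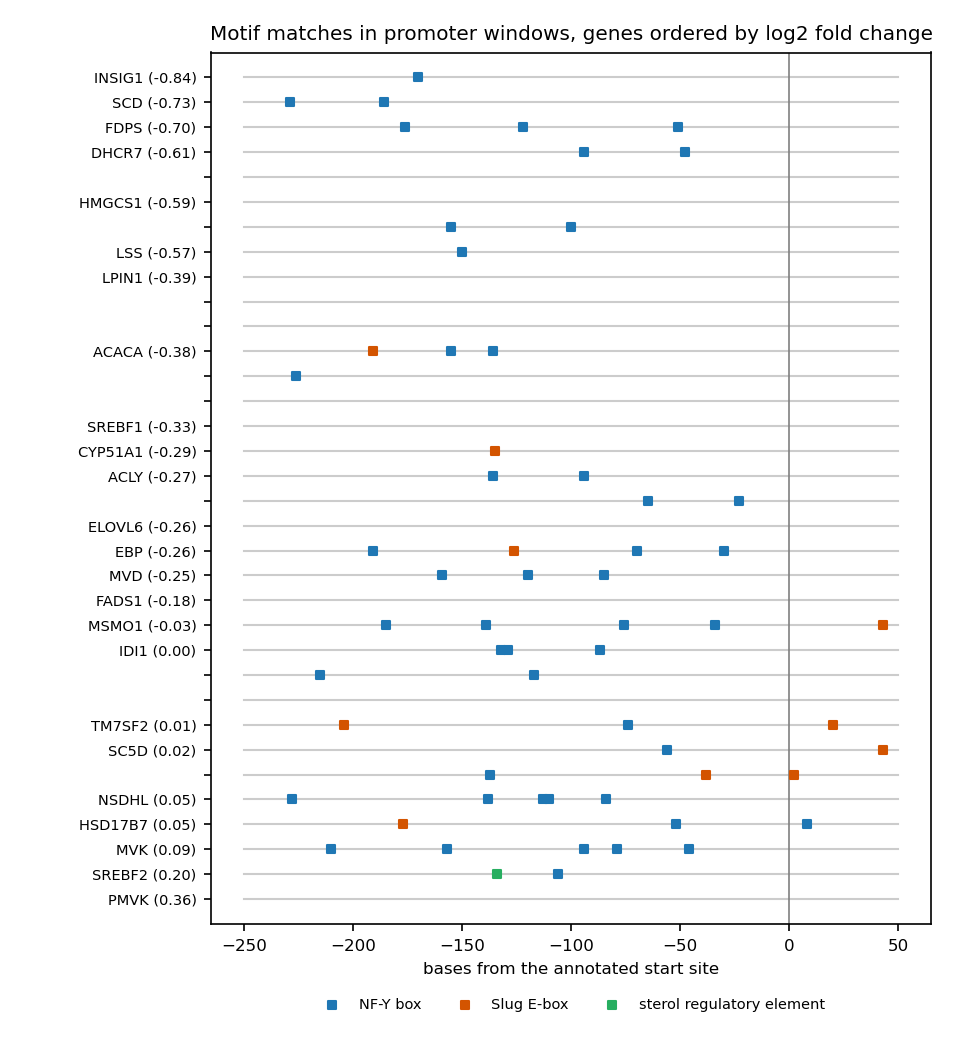
Positions of motif matches on either strand in the promoter windows of the 24 measured genes with a window, in bases from the annotated start site. Genes are ordered from the lowest to the highest log2 fold change (in brackets), with further windows of a gene as unnamed lines under it. Blue marks CCAAT, orange the Slug E-box and green the sterol regulatory element. The 6 genes at the top carry blue marks and no orange ones.

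The replicate number moved with part of the members. Mevalonate genes tended to read higher in replicate 2, with a median difference of 0.18 between the Slug siRNA arrays and 0.20 between the control siRNA arrays, and 5 of 7 were higher in replicate 2 of both groups. Fatty acid genes tended to read lower there, with medians of -0.19 and -0.26 in the same order, and ACACA, FASN, SCD and LPIN1 were lower in replicate 2 of both groups, as were SREBF1 and INSIG1, while ELOVL6 and FADS1 were higher. Of all measured members, 40.7% were higher and 37.0% lower in replicate 2 of both groups. Over all genes, 33.5% were higher and 32.1% lower in replicate 2 of both groups. Of 7 proliferation genes 3 were higher and 2 lower in replicate 2 of both groups, with MCM2, a subunit of the replicative helicase, at 8.85 and 9.55 with Slug siRNA and 8.62 and 9.46 with control siRNA. The transfections were balanced over the numbers. Between samples of the same number, 21 of 27 members were lower with Slug siRNA in replicate 1 (median -0.32) and 21 of 27 in replicate 2 (median -0.23). Over all genes, 5346 of 11200 were lower in replicate 1 (median 0.02) and 5555 in replicate 2 (median 0.0024).

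The measured epithelial markers read higher with Slug siRNA, with CDH1 at 10.95 and 11.34 against 10.64 and 10.61 with control siRNA and KRT8 at 0.99 on the log2 fold change scale (adjusted p = 0.0919). All 4 measured epithelial markers had both Slug siRNA arrays above both control siRNA arrays, as in 23.6% of all genes. Of them 0 passed the adjusted threshold in limma, and 3 were higher at an unadjusted p under 0.05, as were 6.18% of all genes. PECAM1, an endothelial marker, stood at -0.78 (adjusted p = 0.28), while CDH5, VWF and KDR, the other endothelial markers, were not above background. CD14, a monocyte marker, stood at 0.46 (adjusted p = 0.523) and COL1A1, a collagen gene, at 0.09, both with overlapping groups. FABP4, an adipocyte marker, was above background on both Slug siRNA arrays and on neither control siRNA array, at 5.23 and 5.16 against 4.62 and 4.85 with control siRNA. Of the 7 proliferation genes 3 were negative and 4 positive, from -0.70 for MKI67 to 0.32 for PCNA. MKI67 lay near background, at 5.09 and 4.92 with Slug siRNA and 5.85 and 5.56 with control siRNA. It was above background on 1 Slug siRNA array and on both control siRNA arrays. The part of these markers in the result was not tested.

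Genes around the pathway were listed by their role, with earlier results of these data known. Of 19 genes of sterol uptake, regulation and storage 14 were measured, 7 negative and 7 positive, with a median of -0.01 in log2 and 0 past the adjusted threshold in either direction (limma; 2 lower and 1 higher at an unadjusted p under 0.05). Both genes of cholesterol export from lysosomes read lower, NPC1 at 8.05 and 8.15 with Slug siRNA against 8.57 and 8.60 with control siRNA, and NPC2 at 13.14 and 13.16 against 13.51 and 13.61. Their log2 fold changes were -0.49 and -0.41 (adjusted p = 0.275 and 0.347). The highest values belonged to LBR, a lamin receptor that is also a sterol reductase (0.41, adjusted p = 0.356), and NR1H3, which encodes the oxysterol receptor LXR alpha (0.39, adjusted p = 0.407). Of the remaining genes of the SREBP machinery, SCAP, the escort of SREBP, stood at -0.10, INSIG2 at -0.13, and the processing proteases MBTPS1 and MBTPS2 at -0.33 and 0.38.

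Genes of fatty acid supply, elongation and glycerolipid synthesis, 17 of 22 measured, had a median of 0.07 with 8 negative and 9 positive, and 0 passed the adjusted threshold (1 lower and 0 higher at an unadjusted p under 0.05). ACSL1, which activates long-chain fatty acids, read 9.27 and 9.16 with Slug siRNA and 9.75 and 9.68 with control siRNA (log2 fold change -0.50, adjusted p = 0.272). ACSS2, which makes acetyl-CoA from acetate, stood at -0.49 with overlapping groups. At the other end were SCD5, a desaturase related to SCD, at 0.55 (adjusted p = 0.438), and GPAM, the first acyltransferase of glycerolipid synthesis, at 0.31 (adjusted p = 0.47). SCD and SCD5 thus lay on opposite sides of 0, each without overlap between groups. Such an order was common, as 21.5% of all genes had both Slug siRNA arrays below both control siRNA arrays and 23.6% had both above. SCD5 read 7.65 and 8.40 with Slug siRNA and 7.38 and 7.57 with control siRNA. The interval of its difference, -0.05 to 1.15, included 0, so an opposite response of SCD5 was not established. Fatty acid oxidation, the reverse process, had 7 of 8 genes measured, 6 of them positive, with a median of 0.09. Over all genes, 5784 of 11200 were positive. Of the 7, 0 passed the adjusted threshold in limma (0 lower and 1 higher at an unadjusted p under 0.05). Between samples of the same number, 1 of these 7 was lower with Slug siRNA in replicate 1 (median 0.15). In replicate 2, 4 of the 7 were lower (median -0.03). CPT1A, the gatekeeper of fatty acid entry into mitochondria, averaged 6.99 ± 0.01 with Slug siRNA and 6.42 ± 0.07 with control siRNA (SD, n = 2 each), or 0.57 ± 0.16 (SE) in log2 (adjusted p = 0.221). The medium-chain dehydrogenase gene ACADM stood at 0.37, CPT2 at 0.01 and the very-long-chain dehydrogenase gene ACADVL at -0.30.

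**Figure D5:**
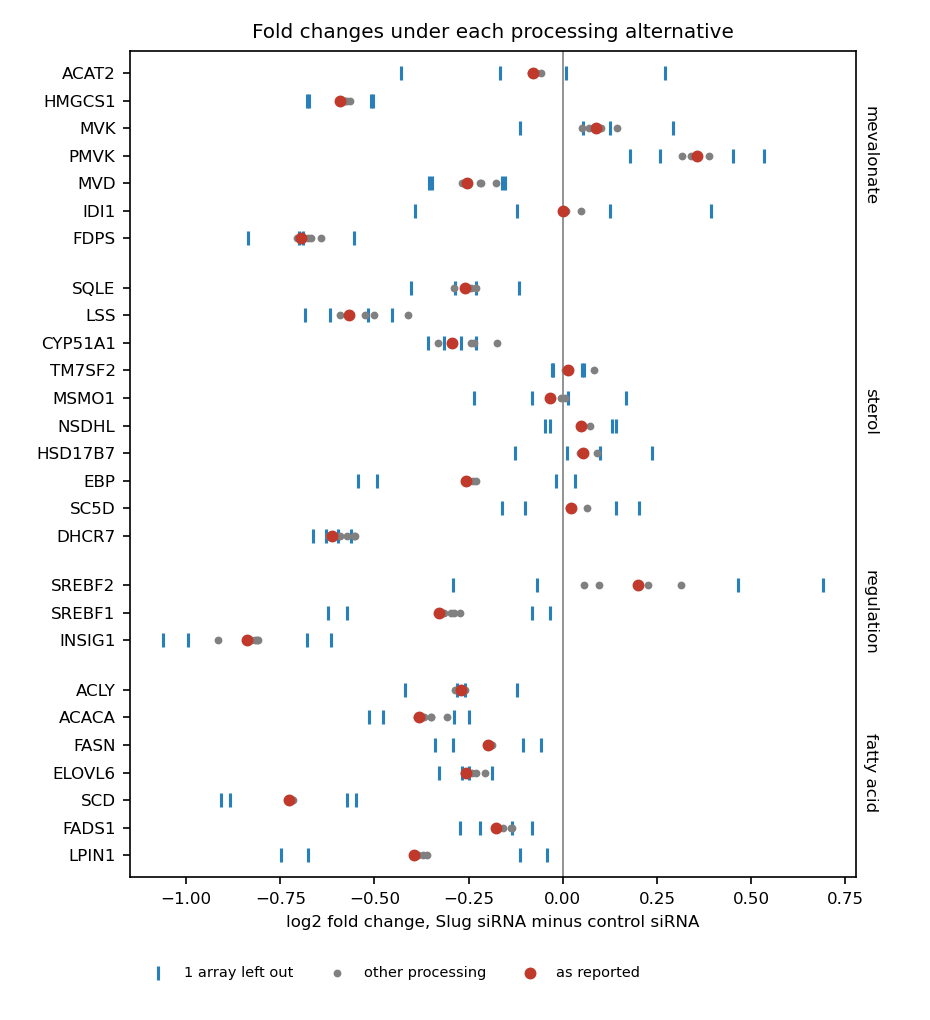
Log2 fold change of each measured gene, Slug siRNA minus control siRNA, as reported (red circle), with 1 array left out (blue bars) and under other processing (grey points), in pathway order. INSIG1 ranges from -1.06 to -0.61 with 1 array left out, and 10 of the 27 genes have values on both sides of 0.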

How the data were processed

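Total RNA of 4 samples was read on Illumina bead arrays. The authors deposited mean bead intensities per probe that are not normalized, with a standard error and number of beads and a detection p-value for each, per the file headers. The median was 20 to 21 beads per probe on each array. The authors also deposited normalized intensities, used as an alternative with a floor of 16. No source used here names the tools behind either table. The first held 8 further columns of per-sample values, which were not used.

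In R 4.3.3 with limma 3.58.1, intensities were corrected with the normal-exponential model, with negative controls inferred from the detection p-values and an offset of 16, quantile normalized and put on a log2 scale. The offset remains in the signal and so shrinks the fold changes of dim probes. Of 47323 probes, 19446 with a detection p under 0.05 on at least 2 arrays were kept. Of all probes, 30113 had 1 symbol in the platform annotation. Groups were compared with lmFit and eBayes, group as the only term, two-sided, with Benjamini-Hochberg adjustment over the kept probes and 0.05 as the threshold. With 2 against 2 arrays an exact permutation test cannot give a p below 0.333. The procedure was tested on simulated data. Figures were drawn with matplotlib 3.10.9.

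The members and lists were chosen with earlier results of these data known. All measured members are named, with most values for those of lowest p in each branch, and from each list around the pathway the 2 lowest and 2 highest genes and the SREBP machinery. The last was added after its values were seen, as were the markers given with values of their own. Alternatives changed the background correction, offset, normalization, source of values, filter, probe choice, replicate term and arrays used.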

Additional observations from a re-analysis of the deposited data

How the results depend on the processing

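The genes past the adjusted threshold over all probes, 4 higher and 9 lower with Slug siRNA, were 66 and 92 without background correction, 89 and 128 with an offset of 50, 12 and 22 with median scaling, 46 and 78 with a stricter filter, and 0 and 0 when dim probes were left in or when the normalized values of the authors were used. With 1 array left out they were 2 to 13 higher (2 without control siRNA replicate 1, 13 without its replicate 2, 7 without Slug siRNA replicate 2) and 1 to 10 lower (1 when control siRNA replicate 1 was omitted and 2 when Slug siRNA replicate 1 was), and the lone array of a group was then assumed to vary like the others. With the replicate number as a block they were 153 and 203. Samples of the same number deviated together (r = 0.36 across probes), but the labels tie the number to no shared day, so the block is not a paired result. The count of members past the threshold, 0 as reported, was 1 lower (DHCR7) without background correction and 2 lower (INSIG1, adjusted p = 0.036, and SCD, adjusted p = 0.045) with the block, and 0 under every other alternative run. The median over all members was -0.20 without background correction, -0.24 with an offset of 50, -0.23 with median scaling and -0.28 to -0.16 with 1 array left out. The sterol median was -0.10 without background correction. With 1 array left out it ranged from -0.20 to -0.10, the mevalonate median from -0.39 to 0.13, the regulator median from -0.62 to -0.034 and the fatty acid median from -0.42 to -0.25. Of the 27 members 17 kept their sign under all 12 alternatives. With 1 array left out the other 10 spanned -0.11 to 0.29 (MVK), -0.39 to 0.39 (IDI1), -0.43 to 0.27 (ACAT2), -0.030 to 0.056 (TM7SF2), -0.24 to 0.17 (MSMO1), -0.047 to 0.14 (NSDHL), -0.13 to 0.24 (HSD17B7), -0.54 to 0.031 (EBP), -0.16 to 0.20 (SC5D) and -0.29 to 0.69 (SREBF2). MSMO1 was 0.0048 with the mean over its probes. The number of arrays limits the precision, and SREBF2 lay near background. The cause of these changes was not tested.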
